A study of Mus musculus with 36 samples.

Results

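The genes described here are 9 members of interleukin-6 (IL-6) family signalling and its neighbours in the liver: the receptor genes Il6st, Il6ra, Osmr, Lifr and Il1r1, the Janus kinase genes Jak1 and Jak2, the transcription factor gene Stat3 and the feedback inhibitor gene Socs3. They were chosen by gene symbol, and all 9 had a value among the 22180 genes of the series. Socs3 was read by 2 probe sets (groups of probes on the array that together read 1 transcript) and each of the other members by 1. The series measured RNA of whole mouse liver on Affymetrix arrays and addressed how a lung tumour bears on daily gene expression in a distant organ. The groups were WT mice and TB mice, the latter being the mice of the study's lung adenocarcinoma model. All mice were on a C57BL/6 background and were kept in a cycle of 12 h light and 12 h dark. Livers were taken at Zeitgeber times (ZT, hours after lights on) 0, 4, 8, 12, 16 and 20, with 3 arrays per combination of genotype and time, which makes 12 groups and 18 arrays per genotype. The labels used here give neither age nor sex.

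As background, cytokines of the IL-6 family act through receptors that share the signalling subunit gp130, the product of Il6st. Ligand binding brings gp130 together with a partner, such as the IL-6 receptor (Il6ra), the oncostatin M receptor (Osmr) or the leukaemia inhibitory factor receptor (Lifr), and activates Janus kinases, which phosphorylate STAT3. Phosphorylated STAT3 enters the nucleus and drives acute phase genes in hepatocytes together with Socs3, whose protein binds gp130 and damps the signal. Interleukin-1, which signals through Il1r1 and NF-kB, acts with IL-6 on many acute phase genes. RNA arrays do not measure the phosphorylation of STAT3.

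Values are array intensities made by the authors, in linear intensity units, which were turned into log2(intensity + 16). Differences are therefore on that scale, and folds are ratios of intensity + 16. Both understate the change of dim genes and are not compared as levels between genes. The 10 hepatocyte markers had array means between 12.1 and 12.4 log2 in all 36 arrays, against a median of 6.09 over all genes and arrays, and Alb, the albumin gene, was never below 13.5. In WT ZT 12 replicate 3 all 15 measured skeletal muscle genes had their highest value, at a median distance of 6.15 log2 from the middle of the other arrays. The arrays also fell into a smaller set of 12 and a larger set of 24, found from the data and not named in the labels, with 1 array of each group in the smaller set. The origin of the split was not tested, and values by set are given below. No label states that replicates are different mice, so the p-values cover only the spread among these arrays, which may be technical.

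Averaged over the 6 times of day, Il6st was the 1 member called higher in TB livers, that is, past the threshold over all genes. It was higher by 0.36 ± 0.065 log2 (SE, n = 18 per genotype), a 1.28-fold difference between group averages of 10.1 (WT) and 10.5 (TB), with the same sign at 6 of 6 times. This passed limma's test over all genes at an adjusted p (Benjamini-Hochberg, threshold 0.05) of 0.0168. Of all genes, 26 (0.117%) were called higher in TB and 13 (0.0586%) lower, and no member was called lower. Each other member but Lifr also had a positive difference, without being called. At an unadjusted p under 0.05 there were 5 members (Il6st, Osmr, Stat3, Il1r1 and Socs3) and 2449 of all genes. Over all genes the median difference was 0.0073 log2, and 53.9% were above 0. In whole liver, fewer cells of a type and less RNA per cell cannot be told apart.

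The intensities of Il6st lay between 987 and 1555 in the 18 WT arrays, with a median of 1095, and between 1080 and 1805 in the 18 TB arrays, with a median of 1450. The genotypes thus overlapped as a whole, with WT ZT 0 replicate 2 above the other WT arrays and TB ZT 8 replicate 2 the lowest of TB. At ZT 12, where the difference of 0.54 log2 was the widest, the WT arrays read 1273, 1162 and 989 and the TB arrays 1805, 1472 and 1699. Every TB array lay above every WT array there, which 6.79% of all genes showed at that time. The same held for Il6st at ZT 16, with 1193, 1104 and 1066 in WT and 1246, 1660 and 1627 in TB, as for 7.98% of all genes. At ZT 20 WT read 1088, 1057 and 1106 and TB 1294, 1560 and 1194, again without overlap, as for 3.26% of all genes. At ZT 0 the WT arrays (1266, 1555 and 987) overlapped with TB (1628, 1283 and 1358), and the difference was 0.18 log2. At ZT 4 (0.30 log2) and ZT 8 (0.40 log2) the groups also overlapped, with the lowest TB arrays at 1099 and 1080. Within groups Il6st varied little more than a typical gene, with an SD of 0.20 log2 that lay at percentile 60.4 of all genes.

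The 4 other receptor genes did not pass over all genes. Osmr, the partner of gp130 for oncostatin M, ran from 57.9 to 133 in WT arrays (median 76.8) and from 67.3 to 295 in TB arrays (median 124). Its difference was 0.54 ± 0.120 log2 (1.46-fold, 6 of 6 times higher), with an adjusted p of 0.0537 in limma, just outside the threshold. At ZT 4 the WT arrays of Osmr read 76.9, 66.3 and 67.1 and the TB arrays 168, 85.3 and 106. For ZT 16 WT read 61.4, 57.9 and 76.6 and TB 122, 151 and 141. Both comparisons were without overlap, which 4.8% of all genes showed at ZT 4 and 7.98% at ZT 16. The highest array was TB ZT 0 replicate 1 at 295, whereas the other arrays of its group read 77.7 and 96.8. The WT mean of Osmr was highest at ZT 12, from arrays at 133, 81.8 and 120.

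Il1r1, the signalling receptor for interleukin-1, differed by 0.63 ± 0.174 log2 (1.55-fold, 6 of 6 times higher; limma adjusted p = 0.137). Its intensities lay between 154 and 742 in WT (median 231) and between 161 and 1092 in TB (median 380), so the genotypes overlapped widely. The gap was widest at ZT 8 (1.59 ± 0.426 log2, adjusted p = 0.515 over all genes at that time), where WT read 290, 158 and 154 and TB read 1092, 330 and 630. TB lay above WT without overlap there and at ZT 20, which 3.54% and 3.26% of all genes showed at these times.

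Lifr, the receptor subunit for leukaemia inhibitory factor, was the 1 member with a negative difference, −0.18 ± 0.108 log2 (limma adjusted p = 0.549), and was higher in TB at 2 of 6 times. Its intensities lay between 1018 and 2374 in WT (median 1302) and between 641 and 1794 in TB (median 1253). The lowest TB arrays were TB ZT 8 replicate 1 at 641 and TB ZT 0 replicate 1 at 734. By array set the direction turned, the larger set giving −0.38 log2 (adjusted p = 0.0666) and the smaller 0.20.

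**Figure D1:**
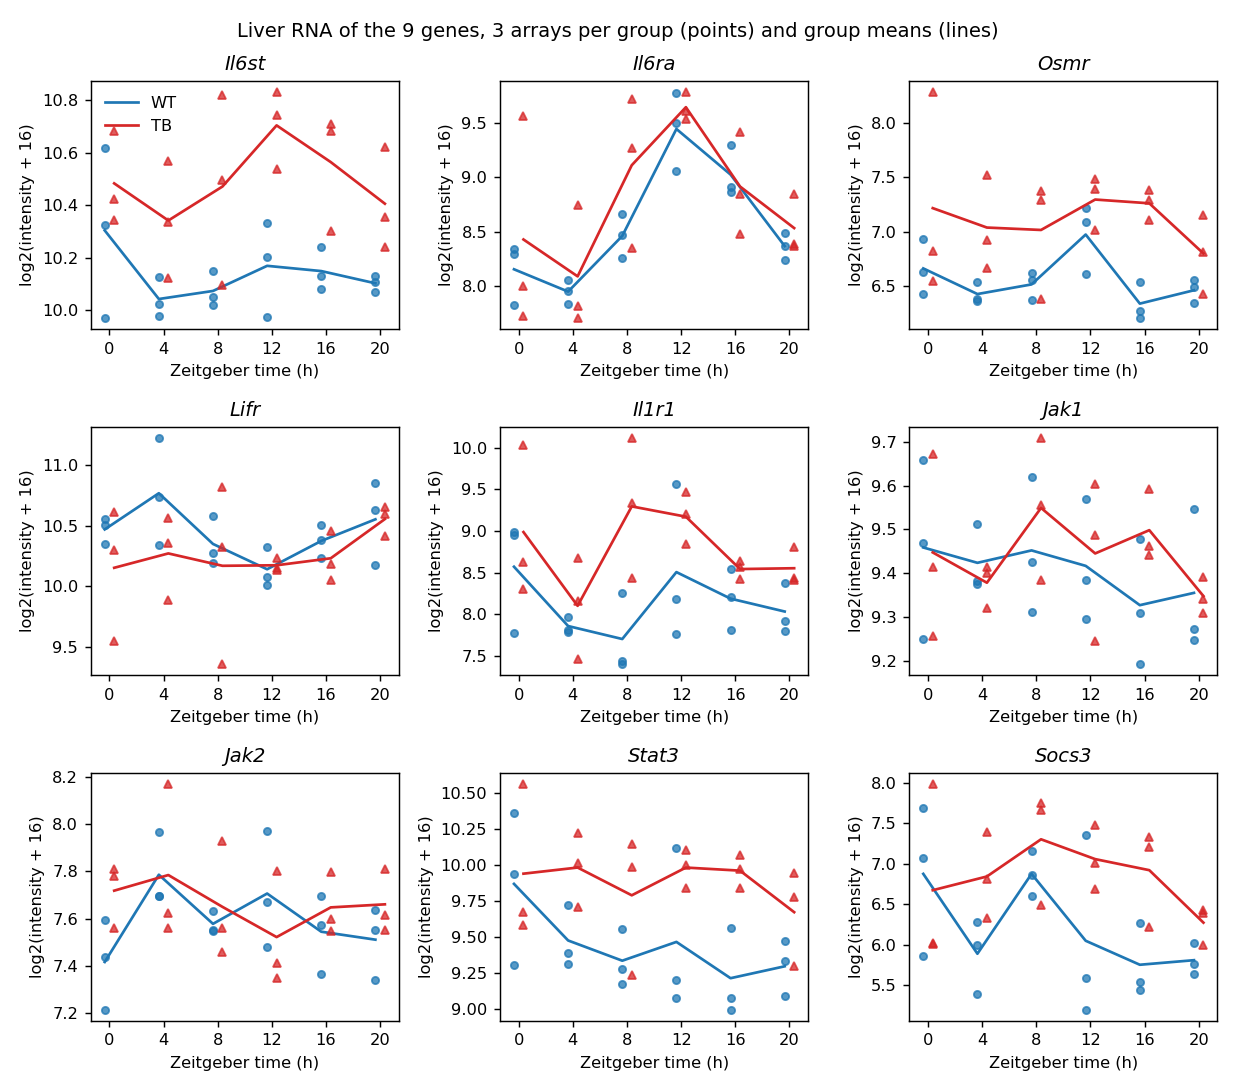
Log2(intensity + 16) of the 9 genes (vertical axes, each with its own range) against Zeitgeber time in hours, with 1 point per array (circles WT, triangles TB, shifted sideways for legibility) and lines through the means of 3 arrays. The TB means of Il6st, Osmr, Stat3 and Il1r1 lie above the WT means at 6 of 6 times and those of Socs3 at 5 of 6, while in both genotypes Il6ra is highest at ZT 12.

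The kinase genes, whose products bind the receptor tails, showed small differences. Jak1 lay between 569 and 792 intensity units in WT (median 652) and between 591 and 821 in TB (median 666), a difference of 0.039 ± 0.051 log2 (limma adjusted p = 0.828). Jak2 lay between 133 and 235 in WT (median 176) and between 147 and 272 in TB (median 179), a difference of 0.073 ± 0.064 log2 (adjusted p = 0.721). The ranges of both genes overlapped almost wholly. A p above the threshold does not show that the kinases were at equal levels.

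Stat3, the transcription factor of the pathway and itself among its own targets, lay between 495 and 1297 intensity units in WT (median 625) and between 587 and 1496 in TB (median 980). The difference was 0.44 ± 0.112 log2 (1.36-fold, 6 of 6 times higher; limma adjusted p = 0.0959), and it did not pass over all genes. At ZT 16 the difference was 0.75 log2. WT then read 495, 526 and 742 and TB 899, 1061 and 989, without overlap, as for 7.98% of all genes. At ZT 0 the difference was 0.071 log2, with WT at 967, 1297 and 618 and TB at 1496, 751 and 801. There 1 array of each genotype stood above the others of its group, WT ZT 0 replicate 2 and TB ZT 0 replicate 1, and these were the highest Stat3 arrays of their genotypes.

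Socs3 is shown with a promoter window because a pair of half-sites of the kind that STAT dimers bind, TTCNNNGAA, lies in it. The window is the 250 bases before 1 RefSeq start of the gene, at chr11:117969367-117969616 (GRCm38.p6, minus strand), written 5′ to 3′ along the gene, with the match in capitals. Its first base is 154 bases before that start. This is not the outermost start, since the RefSeq gene reaches upstream to 117970336 and the window lies within it.
Socs3: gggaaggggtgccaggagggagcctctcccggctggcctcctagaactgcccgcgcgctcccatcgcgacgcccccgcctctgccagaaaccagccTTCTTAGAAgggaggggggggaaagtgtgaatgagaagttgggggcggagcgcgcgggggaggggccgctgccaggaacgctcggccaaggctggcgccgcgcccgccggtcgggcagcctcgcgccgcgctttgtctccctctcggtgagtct
This motif reads the same on both strands. It occurred in 2306 of 32851 promoter windows of that length (7.02%), and among the 11 windows of the 9 members in that of Socs3 alone. A match is a description of the letters, not a binding site.

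The Socs3 intensities were low and variable, between 20.7 and 190 in WT (median 48.5) and between 47.8 and 237 in TB (median 91.3). The difference was 0.64 ± 0.204 log2 (1.55-fold, higher at 5 of 6 times; limma adjusted p = 0.202), so it did not pass over all genes. Its SD within groups of 0.67 log2 was at percentile 99.2 of all genes. At ZT 0 WT read 118, 190 and 42.2 and TB 237, 48.5 and 48.8, and the difference was −0.20 log2. At ZT 4 WT read 48.0, 61.5 and 25.8 and TB 95.8, 64.4 and 152, so that TB lay above WT without overlap. Of all genes 4.8% showed this at that time. At ZT 16 the difference of 1.17 log2 was the widest, yet the WT array at 61.3 overlapped with the TB array at 58.5. The lowest of all 36 arrays was WT ZT 12 replicate 3, the array with muscle RNA, and without it the difference was 0.57 log2 (adjusted p = 0.222). The second probe set of Socs3, with a median of 11.4 intensity units in WT and 22.1 in TB, gave 0.56 ± 0.194 log2 (adjusted p = 0.334 over all probe sets) and followed the first over the 36 arrays at r = 0.889.

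At single times of day 0 members were called in limma, with 0, 1, 2, 1, 4 and 0 members at an unadjusted p under 0.05 from ZT 0 to ZT 20. In the same order, 1051, 722, 1175, 1641, 1194 and 401 of the 22180 genes were under that unadjusted p. Of all genes 0.00451% were called at ZT 8 (1 gene) and 0% at each of the 5 other times. At ZT 0, 0 members had TB above WT without overlap (4.27% of all genes). The dependence of the difference on the time of day was called for 0 members and 0% of all genes (550 genes at an unadjusted p under 0.05), with unadjusted p-values of the members from 0.278 to 0.825. For each of the 9 members the 12 group means, put in order, left 11 gaps between neighbours, and every gap was under the SD within groups. The SD is that of single arrays, and gaps among 12 ordered means tend to be small. The gaps are thus no test of whether groups differ. For Il6st the WT means held ranks 1 to 6 and the TB means ranks 7 to 12.

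The array sets and single arrays bore on these values. With the set as a term in limma, Il6st (adjusted p = 0.00861), Osmr (0.0288) and Stat3 (0.0385) were called, as 3 members of 151 genes called. In the larger set alone Il6st differed by 0.34 ± 0.059 log2 (0.0101) and Osmr by 0.57 ± 0.142 (0.0320), and both were called, beside 1151 of all genes. In the smaller set alone, fitted with additive terms for genotype and time, Il6st differed by 0.39 ± 0.104 (0.464), Osmr by 0.49 ± 0.145, Stat3 by 0.56 ± 0.124, Il1r1 by 0.85 ± 0.126 and Socs3 by 0.68 ± 0.206, and 0 genes were called. These 5 were thus positive on both sides of the split, as parts of the same 36 arrays. For Il6ra the larger set gave 0.32 log2 and the smaller 0.019.

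Il6st passed with each of the 36 arrays left out in turn, at 0.33 to 0.39 log2. Osmr passed in 9 of the 36 cases, with adjusted p-values from 0.0152 (without TB ZT 0 replicate 2) to 0.112. These were without WT ZT 0 replicate 2, WT ZT 8 replicate 2, WT ZT 12 replicate 1, TB ZT 0 replicate 1, 2 or 3, TB ZT 4 replicate 2, TB ZT 8 replicate 2 or TB ZT 20 replicate 3. Stat3 passed without WT ZT 12 replicate 1 (adjusted p = 0.0220) or TB ZT 8 replicate 2 (0.0302), and so did Il1r1 (0.0323 and 0.0498). Without TB ZT 0 replicate 1, the highest array for Stat3, Socs3 and Osmr, the difference of Osmr was 0.45 log2, of Stat3 0.39, of Il1r1 0.54 and of Socs3 0.53.

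**Figure D2:**
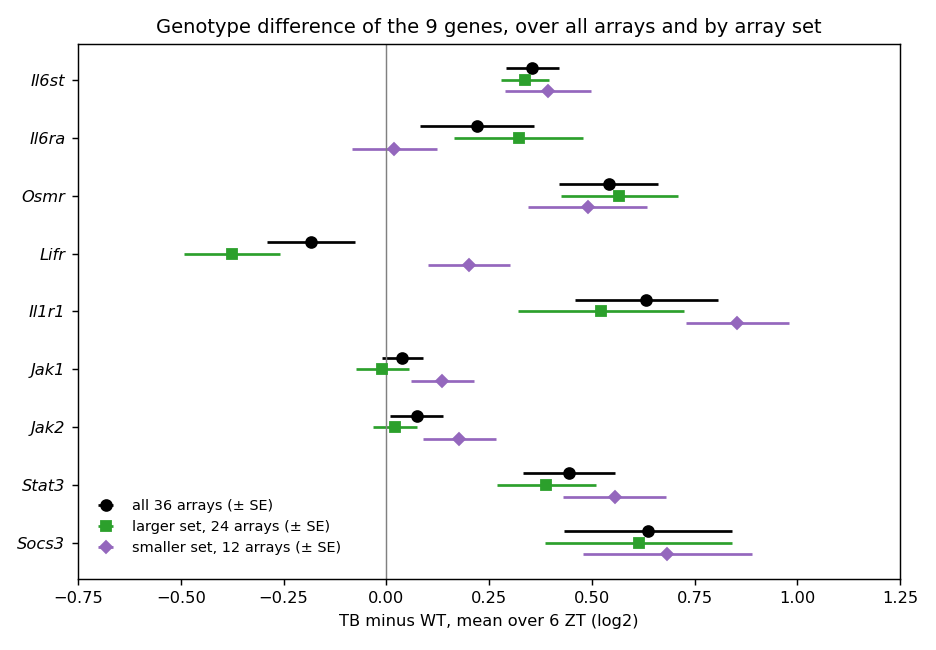
TB minus WT difference in log2, averaged over 6 times of day (horizontal axis), for each of the 9 genes over all 36 arrays (black circles), in the larger set of 24 arrays (green squares) and in the smaller set of 12 arrays (purple diamonds), with bars of 1 SE. Il6st, Osmr, Stat3, Il1r1 and Socs3 are above 0 in each, whereas Lifr lies at −0.38 for the larger set but at 0.20 for the smaller.

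Il6ra, which gives the receptor its specificity for IL-6, was the 1 member with a daily rhythm. In WT the fitted 24 h cosine had an amplitude (height above its mean) of 0.69 ± 0.143 log2 and a peak at ZT 13.6 ± 0.79 (SE; limma adjusted p = 0.00515), and in TB 0.64 ± 0.143 and ZT 12.4 ± 0.85 (adjusted p = 0.0122). Rhythms were called for 6.45% of all genes in WT and 4.95% in TB. In both genotypes the test called the same single member, with 0 further members at an unadjusted p under 0.05. The difference between the rhythms was tested directly and gave 0 members and 0% of all genes, with an unadjusted p of 0.579 for Il6ra and a lowest of 0.194 among members (1064 genes were under 0.05).

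In WT, Il6ra arrays of ZT 4 read 249, 212 and 233 and those of ZT 12 read 864, 708 and 517, while those of TB read 193, 209 and 413 and then 866, 768 and 729. These times had the lowest and the highest means of each genotype and were picked for that. The WT means were 8.15, 7.95, 8.46, 9.45, 9.03 and 8.37 log2 from ZT 0 to ZT 20, and the TB means 8.43, 8.09, 9.11, 9.65, 8.92 and 8.53. In TB at ZT 0 and ZT 8 the arrays were spread. They read 743, 240 and 195 at the first of these times and 830, 309 and 600 at the second. The genotype difference of Il6ra was 0.22 ± 0.139 log2 (limma adjusted p = 0.583). The TB rhythm was not called when time was fitted as 6 levels over all arrays (adjusted p = 0.0583, against 0.0437 in WT), in the larger set alone (amplitude 0.57, adjusted p = 0.132), in the smaller set alone (0.86, 0.0556), without TB ZT 0 replicate 3 (0.59, 0.0527) or without TB ZT 12 replicate 1 (0.60, 0.0505), whereas the WT rhythm lost its call in the smaller set alone (0.59, 0.157).

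The Il6ra promoter is shown because it holds CACGTG, the E-box that clock factors such as CLOCK and BMAL1 can bind. The window is the 250 bases before the RefSeq start, at chr3:89913197-89913446 (GRCm38.p6, minus strand), 5′ to 3′, with the match in capitals, whose first base is 24 bases before the start.
Il6ra: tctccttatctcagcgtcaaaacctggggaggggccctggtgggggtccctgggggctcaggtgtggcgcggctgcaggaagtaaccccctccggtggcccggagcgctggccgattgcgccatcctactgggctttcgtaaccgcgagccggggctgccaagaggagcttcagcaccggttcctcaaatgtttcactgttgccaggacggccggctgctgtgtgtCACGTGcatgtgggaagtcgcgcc
This motif too reads the same on both strands and cannot overlap with TTCNNNGAA here, since no member window held both. It occurred in 1978 of the 32851 windows (6.02%) and, among the members, in that of Il6ra alone. No binding was measured.

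**Figure D3:**
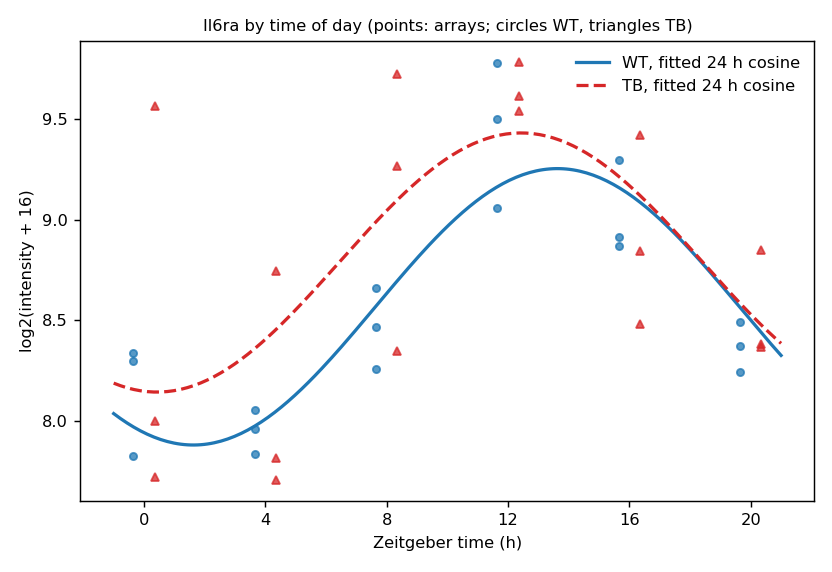
Log2(intensity + 16) of Il6ra (vertical axis) against Zeitgeber time in hours, with 1 point per array (circles WT, triangles TB) and the fitted 24 h cosine of each genotype (solid WT, dashed TB). The fitted peaks are at ZT 13.6 in WT and ZT 12.4 in TB, with amplitudes of 0.69 and 0.64 log2.

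Apart from genotype and time, arrays of a group with more Socs3 RNA also had more Stat3 RNA. Deviations from the group means correlated over the 36 arrays at Pearson r = 0.90 and Spearman rho = 0.85, with permutation p = 1e-05 for r, the smallest 100000 draws can give (8e-05 adjusted over the 8 pairs computed). For Il1r1 r was 0.86 (rho 0.81, permutation p = 4e-05, adjusted 0.00016), and for Il6st 0.75 (rho 0.72, permutation p = 0.00012, adjusted 0.00032). Positive values were also called for Osmr (r = 0.71, rho = 0.68), Il6ra (0.69, 0.63) and Jak1 (0.66, 0.62), with adjusted permutation p-values of r from 0.00152 to 0.00345. Lifr had the opposite sign (r = −0.49, permutation p = 0.0186, adjusted 0.0213; rho = −0.39, adjusted 0.0646), and Jak2 gave r = −0.21 and rho = −0.26 (permutation p = 0.337). These pairs share the RNA and the labelling of each array. How many of all genes follow Socs3 as closely was not computed, so the values do not show a link particular to these members.

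The arrays farthest from the median Socs3 deviation were TB ZT 0 replicate 1 and WT ZT 12 replicate 1, both at the upper end. Without them r was 0.83 for Stat3, 0.74 for Il1r1, 0.77 for Il6st, 0.57 for Osmr, 0.53 for Il6ra and 0.53 for Jak1, each still called, and −0.36 for Lifr, which was not (adjusted permutation p = 0.158). Of the 12 arrays of the smaller set, 10 lay below their group mean for Socs3, 8 for Stat3 and 9 for Il1r1. Within the larger set (n = 24), r was 0.90 for Stat3, 0.85 for Osmr, 0.72 for Il6st and 0.65 for Jak1, which were called, and 0.80 for Il1r1 (adjusted permutation p = 0.0836), 0.58 for Il6ra, −0.57 for Lifr and 0.34 for Jak2, which were not. Over the 12 arrays of the smaller set, without removal of group means, the value for Stat3 was r = 0.67 (rho = 0.73, permutation p = 0.0185, adjusted 0.126) and 0 of 8 pairs were called.

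**Figure D4:**
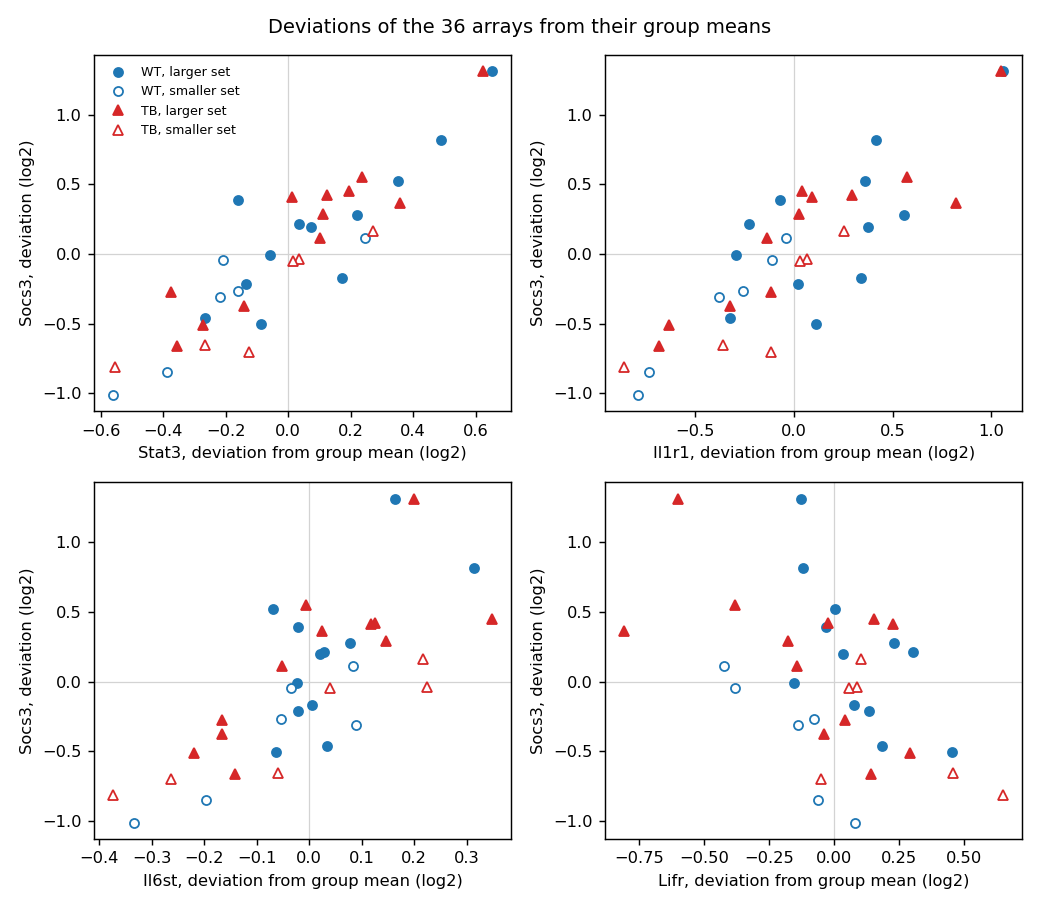
Deviation of Socs3 from its group mean (vertical axes, log2) against that of Stat3, Il1r1, Il6st and Lifr (horizontal axes, log2), with 1 point for each of the 36 arrays (circles WT, triangles TB, filled for the larger array set and open for the smaller). Points rise from lower left to upper right for Stat3 (r = 0.90), Il1r1 (0.86) and Il6st (0.75), and run the other way for Lifr (r = −0.49).

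Of the other genes of the pathway, the ligand, receptor, kinase and inhibitor lists had 0 genes called between genotypes in limma. Of 10 measured ligand genes all 10 had a positive difference, with a median of 0.061 log2. The positive count was 9 under quantile normalization or median centring, and 7 in the smaller set. Several ligands were dim, such as Il6 at means of 4.73 log2 (WT) and 4.78 (TB), against a median of 6.09 over all genes and arrays. Of the 10, 2 were under an unadjusted p of 0.05, the interleukin genes Il1a (0.16 ± 0.069 log2, adjusted p = 0.386) and Il27 (0.16 ± 0.075, adjusted p = 0.413). Of 11 further genes listed with the receptors 7 were positive (median 0.047, 1 under 0.05). These include the receptor antagonist gene Il1rn and the protease gene Adam17, which are not receptors. The smallest p-values among them were those of the interleukin-4 receptor Il4ra at 0.23 ± 0.065 (adjusted p = 0.146) and the growth hormone receptor Ghr at −0.14 ± 0.072. The 7 kinase, adaptor and STAT genes had a median of −0.022, with 3 positive and 0 under an unadjusted p of 0.05. Their smallest p-values were those of the docking protein Gab1 (0.055 ± 0.053) and the phosphatase Ptpn11 (−0.046 ± 0.048). Of 12 inhibitors 8 were positive (median 0.028, 1 under 0.05). Socs2, a growth hormone target of the same family as Socs3, differed by 0.71 ± 0.312 (adjusted p = 0.377), and Pias1, an inhibitor of activated STAT, by 0.065 ± 0.035.

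Downstream, 3 of 44 measured STAT3 target genes were called higher in TB and 0 lower, against 0.117% and 0.0586% of all genes. They were the metal-binding Mt2 (2.06 ± 0.423 log2, limma adjusted p = 0.0377), Lcn2, whose protein binds bacterial siderophores (1.84 ± 0.396, 0.0442), and Fgl1, a secreted hepatocyte protein (1.31 ± 0.285, 0.0459). In all, 37 of the 44 had a positive difference, with a median of 0.17 log2 against 0.0073 over all genes, and differences ran from −0.31 (Myc) to 2.06 (Mt2). The list was written with earlier results of these data known, and many of its genes also answer to other signals, so it is no independent evidence of a direction. Leaving out single arrays moved the called count from 0 to 12 (without WT ZT 12 replicate 1), and it was 1 without the muscle array. The called count was 0 in most of the 36 fits, for example without WT ZT 12 replicate 2 or TB ZT 20 replicate 1. It was 0 at a pseudocount of 1, 0 with a variance trend and robust fitting, 1 for the mean of the probe sets of a gene, and 6 with the array set as a term. Averaged over the list, the highest arrays were WT ZT 12 replicate 1 and WT ZT 0 replicate 2 (both 10.1 log2) and TB ZT 0 replicate 1 (10.0). The last of these was also the highest TB array for Stat3 and Socs3, and WT ZT 0 replicate 2 the highest WT array for both. Of 15 inflammatory NF-kB genes 0 were called and 13 were positive (median 0.063, 2 under 0.05). The smallest p-values were those of the signalling genes Irak3 (0.35 ± 0.139, adjusted p = 0.316) and Myd88 (0.22 ± 0.091, adjusted p = 0.335).

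**Figure D5:**
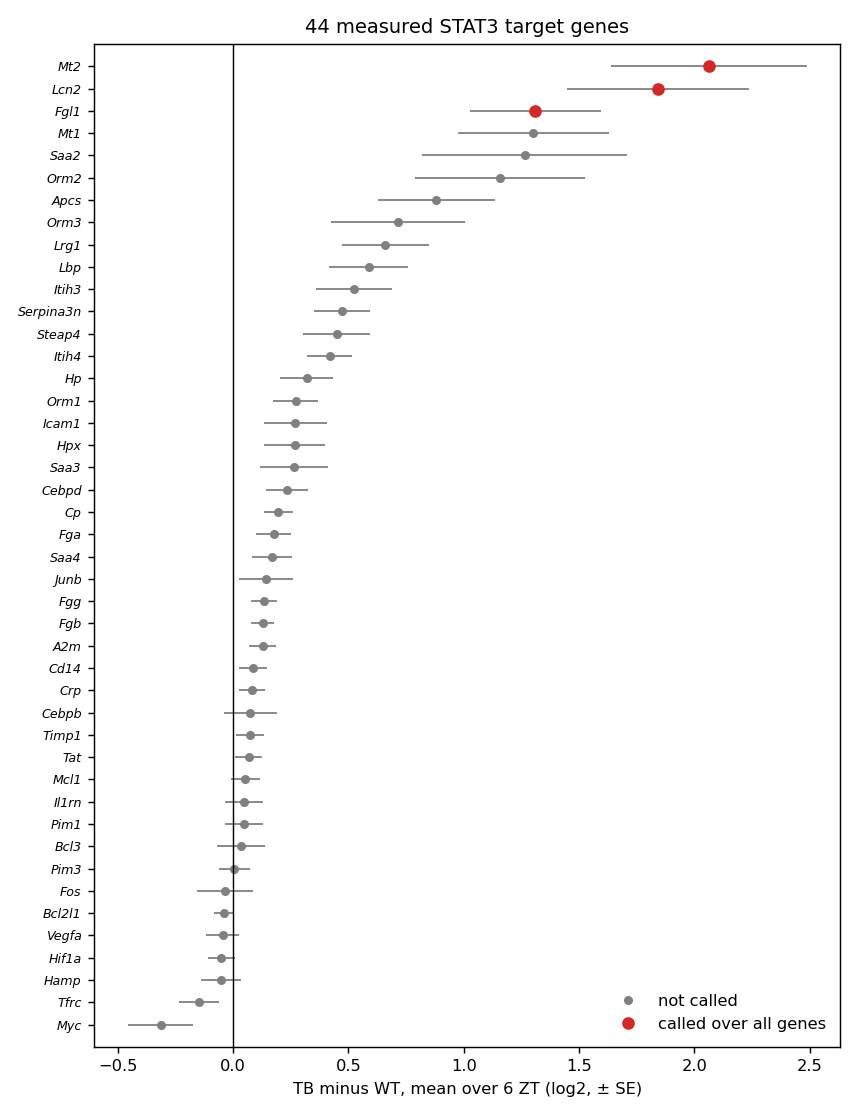
TB minus WT difference in log2 with bars of 1 SE (horizontal axis) for the 44 measured STAT3 target genes, ordered by size, with the 3 genes called over all genes in red. Mt2, Lcn2 and Fgl1 are called, and 37 of 44 genes lie to the right of 0.

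Markers of other cell types are given beside these values, and their part in the results above was not tested. Of 10 Kupffer cell and macrophage markers 0 were called and 9 were positive, and the smallest p was that of the scavenger receptor Marco (0.69 ± 0.227 log2, limma adjusted p = 0.219). Their summed intensity ran from 1047 to 3069 in WT (median 1666) and from 1384 to 3017 in TB (median 2019). Among 11 neutrophil markers 1 was called higher in TB, the elastase gene Elane (0.26 ± 0.056, limma adjusted p = 0.0442). Their sums were 281 to 453 in WT (median 346) and 313 to 448 in TB (median 386). The sums of 10 endothelial markers were 1943 to 2690 in WT (median 2358) and 1875 to 2804 in TB (median 2438), and those of 10 stellate cell and fibroblast markers 2520 to 7181 (median 3113) and 2668 to 4897 (median 3459), with 0 called in each. The 7 cholangiocyte markers summed to 236 to 559 in WT and 219 to 470 in TB, with Cftr and Cldn7 under 16 in every array, and the 8 lymphocyte markers to 455 to 643 and 390 to 623. The 8 lung epithelium markers summed to 465 to 535 in WT and 442 to 596 in TB, with 0 called and Sftpa1 at 0.24 ± 0.071 (adjusted p = 0.184). Muscle markers summed to 653 to 1040 in TB and up to 286391 in WT, in the muscle array, and the 1 measured red cell marker, Slc4a1, differed by 0.096 ± 0.056 log2 (adjusted p = 0.549).

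The genes whose levels were most like those of 4 members over the 36 arrays are given as a description, since the points share genotype, time and array set. For Il6st they were Clca3a1 (r = 0.88), Adam23 (0.87) and Ankrd55 (0.86), and for Osmr Fetub (0.84), Pgm2 (0.83) and Mustn1 (0.83). For Stat3 they were the plasma protein genes Itih4 (0.94) and Fgl1 (0.93) and the interleukin-13 receptor subunit Il13ra1 (0.93). Socs3 was most like the plasma protein gene Vtn (0.86), Dnajc12 (0.85) and Itih3 (0.84). Among these 12 genes Clca3a1, Adam23, Ankrd55, Fetub, Mustn1 and Fgl1 passed the genotype test, with differences from 0.35 to 1.31 log2.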

How the data were processed

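RNA of mouse liver was measured on 36 arrays of 1 colour, 3 for each of 12 groups taken from the sample titles. The deposited values are linear intensity units per probe set, made by the authors with PLIER 2.0 in Affymetrix Expression Console 1.1.1 per the submitters' processing notes. The sources used here give neither their settings nor a between-array normalization. Medians per array ran from 36.3 to 43.3, with 23.0% of values under 16. No 2 arrays held identical values, and their number limits the precision.

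Of 41345 probe sets 23521 had 1 gene symbol, 1814 several and 16010 none. Those with 1 symbol were updated through the RefSeq table of GRCm38.p6 (99.2% matched). The probe set with the highest mean stood for a gene (22180 genes), as log2(value + 16), unfiltered. Promoters are RefSeq's.

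Limma 3.58.1 in R 4.3.3 fitted 12 group means, and 24 h cosine terms per genotype for rhythms, with Benjamini-Hochberg adjustment over all genes and two-sided or F tests. Correlations used numpy 2.4.6 with two-sided permutation within groups. The fits were tested on simulated data. All 9 members were named, with each called gene of the pathway lists, the 2 smallest p-values per list, and the 3 genes most like Il6st, Osmr, Stat3 and Socs3. Members and lists were chosen with earlier results of these data known, and marker genes were named by the same rule. Of 203 listed symbols 186 had a value. Array sets are the sides of the first principal component of deviations from group means of the probe sets with several symbols or none. The alternatives are given in the closing section. The alleles of the TB mice are not reported here.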

Additional observations from a re-analysis of the deposited data

How the results depend on the processing

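Over the alternatives other than leaving out an array, 261 of 324 values were kept, and 1030 of 1116 with 1 array left out. For a difference or correlation with a p, kept means the same direction and side of the threshold. For counts of called members, genes or pairs it means a similar count only, and for rhythm amplitudes the side only. Socs3 correlations with 1 array left out had no p and were judged by sign alone. Differences of the smaller set without a p were judged by sign and size. Members called between genotypes (1) were 2 under quantile normalization, 2 without the dimmest genes (14786 genes kept, all 9 members among them), 3 with the array set as a term, 2 in the larger set, 0 in the smaller set and 1 to 4 with an array left out. All genes called (39) were 15 at a pseudocount of 1, 151 with the set as a term, 1151 (331 higher, 820 lower) in the larger set, 0 in the smaller and 11 to 109 with an array left out. The replicate block gave 2 members (Osmr called, adjusted p = 0.0328), and pairs of WT and TB arrays with the same ZT and number as a block gave 3 members (Osmr 0.0252, Stat3 0.0484), 100 of all genes, 1 gene for the interaction (0 without it) and 4 at single times. Deviations of the 18 such pairs correlated from −0.052 to 0.41, 14 of them over 0.1, which falls short of all pairs, and 25 of 36 arrays correlated best with the array of their own number. The labels do not say what a number shares, and the pairs were not used as the main fit, but the smaller set's WT and TB arrays carried equal numbers at 6 of 6 times, so number and set are not separate. At single times of day the total of all genes called (1) was 2 under quantile normalization, 0 under median centring, 2 without the dimmest genes, 0 for the mean of probe sets, 6 over all probe sets, 2 with a variance trend, 0 with the replicate block, 3 with the set as a term, 30 in the larger set, 2 from the arrays of that time alone and 0 to 22 with an array left out. With an array left out the interaction was called for 0 to 3 genes and differential rhythm for 0 to 1. Rhythms in WT (1 member, 1430 genes) were 0 and 16 in the smaller set and 597 genes for a 6-level time factor. Rhythms in TB (1 member, 1099 genes) were 0 members in the larger set, 0 in the smaller, 0 for the 6-level factor and 0 to 1 with an array left out, and 1660 genes with the set as a term, 19 in the smaller set and 482 for the 6-level factor. Socs3 pairs called (7) numbered 4 for the larger set and 0 for the smaller. Directions turned for Lifr in the smaller set (0.20), Jak1 in the larger (−0.010) and Socs3 with Jak2 in the larger (r = 0.34). For the smaller set the Socs3 pairs were correlated without removal of group means. Genotype and time thus enter these values, which are a different measure from the main ones. On that measure the signs for Jak2 (r = 0.19), Il6ra (−0.050) and Lifr (0.30) were opposite to the main ones. The causes were not tested, and a set also holds fewer arrays than the whole. The additive fit and the correlations of the smaller set and the second Socs3 probe set were added after the data were seen, since 1 array per group leaves 12 group means no residual degrees of freedom. No scaling moved the median of all genes by over 0.1 log2.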

Other observations

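Ankrd55, which was among the genes most like Il6st over the arrays, is also its immediate neighbour among RefSeq's protein-coding genes on chromosome 13. It rose by 0.45 ± 0.068 log2 in TB (limma adjusted p = 0.00131, n = 18 per genotype, higher at 6 of 6 times). Its means of 5.09 log2 in WT and 5.54 in TB were dim, under the median of 6.09 over all genes and arrays. The 7 other measured genes among the nearest 4 protein-coding genes on either side were Gpbp1, Mier3, Map3k1, Il31ra, Ddx4, Slc38a9 and Plpp1. They differed by −0.090 to 0.070 log2 and were not called, with 1 of them (Gpbp1) under an unadjusted p of 0.05. Il31ra on the other side of Il6st encodes another receptor subunit of the family and differed by 0.061 ± 0.044 log2. These neighbours were chosen after the values of Ankrd55 had been seen.

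Some genes of the pathway lists had a daily rhythm in both genotypes, beside Il6ra. They are named after their values were seen. Stat5b, a STAT of growth hormone signalling, peaked at ZT 2.74 in WT and ZT 1.08 in TB, with amplitudes of 0.27 and 0.28 log2 (limma adjusted p = 0.00827 and 0.00714). Gab1 peaked at ZT 11.4 and 10.8 (0.28 and 0.25), the kinase gene Pim3 at ZT 11.7 and 10.3 (0.51 and 0.42), the acute phase gene Crp at ZT 23.3 and 23.0 (0.31 and 0.23), and the NF-kB inhibitor Nfkbia at ZT 9.99 and 8.92 (0.26 in each). None of these 5 differed between genotypes in rhythm, with adjusted p-values of 0.985 to 0.994 in limma.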
